A study of Homo sapiens with 5 samples.

Results

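BG4 ChIP-seq peaks on chromosome 17 were examined in C4-2 cells, a prostate cancer line of human origin that is long established and does not depend on androgen. The labels also give prostate cancer tissue as the source, but each sample names this line. BG4 is an antibody that binds folded G-quadruplexes (G4s). Chromatin was fixed with formaldehyde, sonicated, pulled down with BG4 and sequenced, and the authors called peaks where reads piled up. The 4 libraries are replicates 1 to 4 of one untreated condition in one cell line, so no genotype, treatment or time was compared. An input library was not analysed here. Peaks from all replicates were pooled, overlapping ones (1 bp or more) were joined, and joined regions that held peaks from 2 or more replicates were kept. This gave 462 G4 regions on chromosome 17, out of 6543 on the 24 chromosomes. All peak positions are on GRCh37 (hg19).

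G4s form where guanine-rich DNA folds into stacked planes of guanines, and they are best known from promoters of active genes and from telomere repeats. A common sequence pattern for them is a series of short guanine runs separated by short loops. Chromosome 17 is one of the gene-dense human chromosomes. Its short arm carries a crowded block of housekeeping genes, and its long arm carries the HOXB homeobox cluster and the type I keratin genes.

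No genome of GRCh37 was at hand, so the bases under the peaks could not be read. Promoter sequence was taken instead from RefSeq on GRCh38.p14, matched by gene symbol to the study's list of gene windows of 4000 bp. Of the symbols in the 88 windows on chromosome 17, 16 matched a RefSeq promoter at the outermost start of the gene, and 9 of these had peaks of at least 2 replicates in the window. The motif searched was 4 runs of at least 3 G with loops of 1 to 7 bases of any kind, on both strands, within 250 bp upstream of the start. NME1 and its readthrough gene share 1 promoter, so the 16 symbols stand for 15 sequences and the 9 for 8. The RefSeq promoter of NME2 is not the one at its window, which is nearly that of NME1. The motif was found in 2 of these 8 sequences and in 4 of all 15. It was found in 21.99% of 24885 RefSeq promoters, and in 26.3% of the 1140 on chromosome 17. With so few sequences, the shares among these genes are not read as different from either background. The 3 promoters below show a window with a peak in every replicate (CYB561), a window with 2 motifs (CACNB1) and a GC-rich promoter without the motif whose window had peaks in 3 replicates (RAI1). Capitals mark the motif, and each sequence is given on the strand of its gene, 5′ to 3′.
CYB561: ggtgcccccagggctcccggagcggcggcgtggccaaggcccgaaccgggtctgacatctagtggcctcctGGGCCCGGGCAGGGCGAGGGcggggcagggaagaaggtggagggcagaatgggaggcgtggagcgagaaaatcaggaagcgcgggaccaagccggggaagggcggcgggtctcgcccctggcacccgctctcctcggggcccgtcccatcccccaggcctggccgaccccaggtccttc
CACNB1: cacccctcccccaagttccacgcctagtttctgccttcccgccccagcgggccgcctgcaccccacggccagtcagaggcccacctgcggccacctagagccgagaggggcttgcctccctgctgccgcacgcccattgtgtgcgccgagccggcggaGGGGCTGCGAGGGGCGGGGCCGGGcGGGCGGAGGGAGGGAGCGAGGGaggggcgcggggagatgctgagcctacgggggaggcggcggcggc
RAI1: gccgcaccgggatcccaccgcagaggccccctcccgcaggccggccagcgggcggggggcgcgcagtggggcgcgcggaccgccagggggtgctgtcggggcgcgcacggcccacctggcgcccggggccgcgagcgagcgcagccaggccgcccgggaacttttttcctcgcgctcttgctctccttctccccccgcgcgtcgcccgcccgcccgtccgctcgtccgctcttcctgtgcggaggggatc

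CYB561 encodes a cytochrome b561 of secretory vesicle membranes, and its sequence lies at chr17:63446640-63446889 on the minus strand, with 1 motif of 20 bases that begins 179 bp upstream of the start. CACNB1 encodes the beta-1 subunit of voltage-gated calcium channels. Its sequence lies at chr17:39197670-39197919 on the minus strand, with neighbouring motifs of 24 and 22 bases that begin 92 and 67 bp upstream. RAI1 encodes a nuclear regulator of transcription, and its sequence lies at chr17:17681208-17681457 on the plus strand. G and C made up 79.2% of its bases, against 73.6% for CYB561 and 76.4% for CACNB1. Whether these bases lie under the called peaks was not established, because the peaks are on the other build.

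Chromosome 17 carried far more G4 peaks for its length than the rest of the genome in each library. Replicates 1 to 4 had 553, 427, 456 and 290 peaks on it, or 7.19%, 7.20%, 6.99% and 6.92% of their peaks on the 24 chromosomes. The number fell with the size of the list, while the share stayed within a narrow range. The density of peaks on chromosome 17 was 2.83 ± 0.0615 times that of the other 23 chromosomes (SD, n = 4 replicates), and it was higher in 4 of 4 replicates. In a two-sided exact sign-flip permutation test this gave p = 0.125, adjusted to 0.25 by Benjamini-Hochberg over 4 tests. With 4 replicates, 0.125 is the smallest p that this test can give. The lists hold no read counts, so the depth of the libraries is unknown, and the copy number of the chromosome in these cells was not analysed here. Each length ran from the first base of a chromosome to its last peak. It thus included stretches without known bases, which were not measured, so every density depends on them.

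Chromosome 17 held 5.70 recurrent regions per Mb over the 81.1 Mb up to the last peak, and the other chromosomes together held 2.02. By these lengths only chromosome 19, with 8.26, was denser, while chromosome 16 followed with 3.98 and chromosome 22 with 3.89. How far stretches without known bases lower the densities of other chromosomes, such as 22, was not tested. By number of regions chromosome 17 ranked 3 of 24, after chromosomes 1 and 19. The regions covered 270.3 kb, or 3.34 kb per Mb, which also ranked 2.

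**Figure D1:**
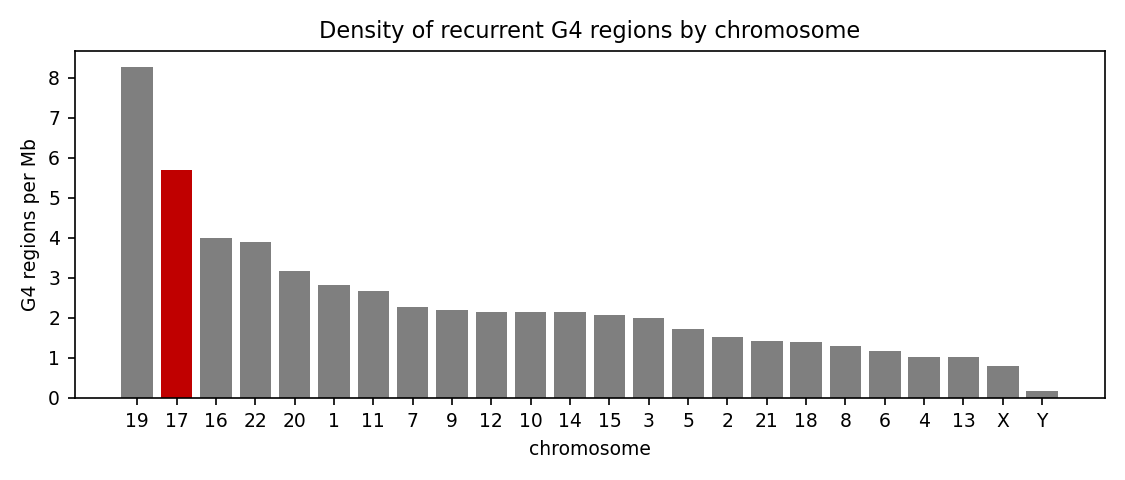
Recurrent G4 regions per Mb (vertical axis) on each of the 24 chromosomes, ordered by density, with chromosome 17 in red. Each bar is 1 chromosome, with its length taken to the end of its last peak, stretches without known bases included. Chromosome 17 stands at 5.70 per Mb, below chromosome 19 at 8.26 and above chromosome 16 at 3.98.

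Strength and replicate support of the peaks were close to those elsewhere in the genome. The median fold enrichment of all chromosome 17 peaks was 7.31, 7.29, 7.41 and 6.98 in replicates 1 to 4, and that of peaks on the other chromosomes was 7.59, 7.37, 7.47 and 6.89. Fold enrichment is the authors' ratio of signal at the summit to the local background. It was lower on chromosome 17 in 3 of 4 replicates, with a mean difference of -0.0793 ± 0.155 (SD, n = 4; two-sided exact sign-flip permutation test, p = 0.5, adjusted p = 0.5). The share of peaks that overlapped a peak of another replicate was 78.1%, 87.4%, 86.0% and 92.4% on chromosome 17. The mean difference from the other chromosomes was 0.859 ± 1.03 percentage points (SD, n = 4; two-sided exact sign-flip permutation test, p = 0.25, adjusted p = 0.333). Both differences were smaller than their spread between replicates.

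Of the 723 merged regions on chromosome 17, 261 had a peak of 1 replicate, 136 of 2, 127 of 3 and 199 of all 4. The 462 kept regions are thus 63.9% of the merged ones, beside 63.1% over the 24 chromosomes. A peak in all 4 replicates was found in 43.1% of the 462 (exact binomial 95% confidence interval 38.5% to 47.7%, counting error only), beside 41.4% over the 24 chromosomes, so the share was near the background. Just outside the threshold, regions of a single replicate had a median highest fold enrichment of 5.60, and just inside it regions of 2 replicates had 6.99. Regions of 3 replicates had 8.96 and regions of 4 had 12.2. The median width was 427.5 bp in regions of 2 replicates and 656 bp in regions of all 4. Both measures rise with support in part by construction, since the highest value is taken over more peaks and a region spans all the peaks it joins.

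Replicate 4, the shortest list, was the one most often missing. It had a peak in 266 of the 462 regions, while replicates 1, 2 and 3 had one in 425, 372 and 386. Among the 127 regions with 3 replicates, 86 lacked replicate 4, 21 lacked replicate 2, 11 lacked replicate 3 and 9 lacked replicate 1. Among those with 2 replicates, the pair of 1 and 3 was the most frequent (50 regions) and the pair of 3 and 4 the rarest (4 regions). Pearson's r of fold enrichment between replicates, with 0 where a region had no peak, averaged 0.630 over the 6 pairs and ranged from 0.582 to 0.684. Over the 6081 regions of the other chromosomes it averaged 0.638. Regions of 1 library share its depth, so these values are descriptions without a p.

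Along the chromosome, the G4 regions were densest near both ends. The arms were split at 24 Mb, inside the centromere. The short arm held 147 regions (6.13 per Mb) and the long arm 315 (5.52 per Mb). In peaks per Mb the ratio of the long to the short arm was 0.924, 0.9505, 0.817 and 0.824 in replicates 1 to 4, with a mean of 0.879 ± 0.0683 (SD, n = 4). It was below 1 in 4 of 4 replicates (two-sided exact sign-flip permutation test, p = 0.125, adjusted p = 0.25, with 0.125 the smallest possible). The fullest bin weighed on this order. Without the bin from 7 to 8 Mb, which was chosen after the data were seen and lowers the short arm only, the mean ratio was 1.04, and 3 of 4 replicates were above 1 (two-sided exact sign-flip permutation test, p = 0.375). Without the fullest bin of each arm it was 0.974, with 0.985, 1.049, 0.901 and 0.961 in replicates 1 to 4 (two-sided exact sign-flip permutation test, p = 0.5). A ratio below 1 in all 4 replicates was thus not kept without these bins. With or without them the test could not give a p under 0.125, so it could not settle a difference between the arms.

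Boundaries chosen after the data were seen split the chromosome into 5 stretches. The first 9 Mb held 101 regions, or 11.2 per Mb, and the stretch from 72 Mb to the end held 116, or 12.8 per Mb. The stretch from 24 to 50 Mb held 147 regions at 5.65 per Mb, close to the 5.70 of the whole chromosome. There were 46 regions between 9 and 24 Mb (3.07 per Mb) and 52 between 50 and 72 Mb (2.36 per Mb). In every library the 2 end blocks were the densest, with 10.3 ± 2.29 and 12.0 ± 3.46 peaks per Mb (SD, n = 4). The dense and the sparse stretches had similar strength. The median highest fold enrichment was 9.12 in the first stretch and 9.24 in the last, against 9.54 and 9.04 in the sparse ones and 8.95 between 24 and 50 Mb.

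In bins of 1 Mb, 10 of 82 bins were empty (12.2%), beside 43.9% of the 3025 bins of the other chromosomes. Bins without known bases counted as empty too. Their number was not measured, so the size of this contrast is not settled. Of the 462 regions, 267 (57.8%) lay in the 19 bins with 10 or more. The longest stretch without a region ran over 3629 kb, from 22030400 to 25659627, across the centromere. The next, from 67323771 to 70147749 on the long arm, measured 2824 kb.

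The fullest bin ran from 7 to 8 Mb and held 27 regions, 13 of them with a peak in all 4 replicates. It ranked 4 among all 1 Mb bins of the genome, after bins on chromosomes 16, 11 and 19. Replicates 1 to 4 had 28, 25, 28 and 22 peaks in it, which is 6.16% ± 1.05 of their chromosome 17 peaks (SD, n = 4). The bin from 79 to 80 Mb followed with 24 regions, and with 32, 25, 22 and 14 peaks. Replicate 1 had more peaks in the later bin, replicates 3 and 4 had more in the earlier one, and replicate 2 had the same number in both. The bins from 73 to 74 Mb and from 80 to 81 Mb held 18 regions each, and the bin from 4 to 5 Mb held 16. These 5 bins held 103 regions (22.3%).

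**Figure D2:**
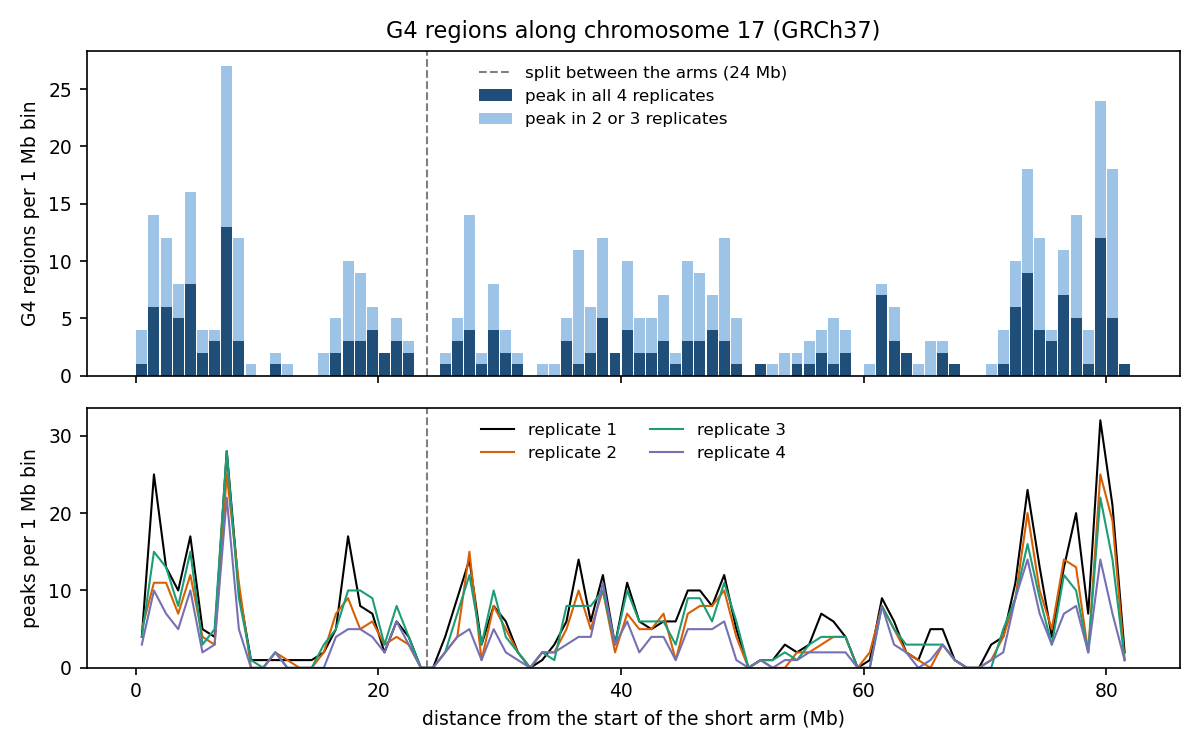
Upper panel: G4 regions per 1 Mb bin along chromosome 17 (horizontal axis in Mb, GRCh37), with regions found in all 4 replicates in dark blue and those of 2 or 3 replicates in light blue. Lower panel: peaks per bin in each replicate; the fullest bins are those from 7 to 8 Mb (27 regions) and from 79 to 80 Mb (24 regions), and the dashed line marks the split between the arms at 24 Mb.

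Gene number was counted from the order of genes in RefSeq. Genes with a window gave 21 anchors at least 0.5 Mb apart, and between them lay 22 intervals with all 1169 protein-coding genes that RefSeq places on the chromosome. G4 regions were counted between the window centres on GRCh37, and genes between the same anchors on GRCh38.p14. The interval from RNASEK, a ribonuclease gene, to KCNAB3, a potassium channel subunit gene, was the most crowded. It held 60 genes and 28 G4 regions in 0.917 Mb, or 30.5 regions per Mb. Among its genes are POLR2A, for the largest subunit of RNA polymerase II, EIF4A1 and EIF5A, for translation factors, and KDM6B, for a histone demethylase. Whether any peak lies at one of these genes was not established. From TSPAN10 to the end of the long arm there were 52 genes and 33 regions, or 22.7 regions per Mb.

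Across the 22 intervals, G4 regions per Mb and genes per Mb had a Pearson's r of 0.906 and a Spearman's rho of 0.840. Without the 2 intervals farthest from the median gene density, r was 0.704. These points share a chromosome and differ in base composition, which was not measured, so no p is given. Both densities are divided by the same interval length, which ran from 0.502 to 12.5 Mb. This alone can raise r, and its part was not tested. The anchors also come from the window list, which was chosen by peaks of these samples. Per 100 genes there were 39.5 regions over the whole chromosome. The interval from CANT1 to TSPAN10 stood highest with 76.5, and the interval from RHOT1 to RAD51D lowest with 18.2. From TNS4 to HOXB13 there were 228 genes but only 49 regions, or 21.5 per 100 genes. Keratin and keratin-associated protein genes, which are active in epithelia and hair, made up 62 of these 228. Whether they bear on the low number of regions was not tested.

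**Figure D3:**
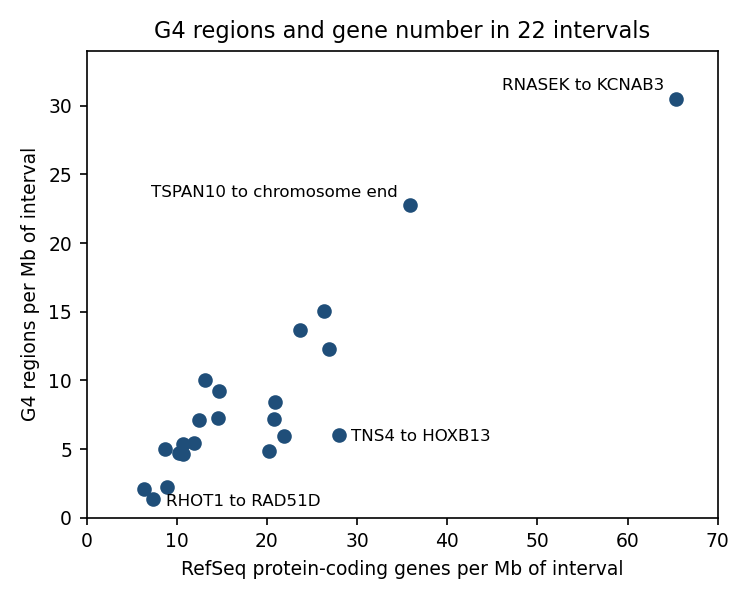
G4 regions per Mb (vertical axis) against RefSeq protein-coding genes per Mb (horizontal axis) in 22 intervals of chromosome 17 between anchor genes. Each point is 1 interval; RNASEK to KCNAB3 lies at the upper right with 30.5 regions per Mb, and TNS4 to HOXB13 has 6.01 regions per Mb at 27.98 genes per Mb, against 12.3 at 26.8 from CACNB1 to TNS4.

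Close neighbours were frequent. A neighbour at a distance of 10 kb or less was found for 120 regions (26.0%), while elsewhere in the genome the share was 17.8%. Chromosome 17 ranked 5 of 24 in it. A denser chromosome has more such pairs, so the value was not read apart from density. On the short arm the share was 30.6% and on the long arm 23.8%. Regions with a close neighbour had a median highest fold enrichment of 9.14 and the others 9.04. There were 39 pairs, 8 groups of 3, 2 groups of 4 and 2 groups of 5 regions. One group of 5 spanned 9.63 kb from 2295851 to 2305482, with 3 regions found in all 4 replicates. The other spanned 12.9 kb from 77805347 to 77818208, with 2 such regions.

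Width ranged from 298 to 1585 bp with a median of 529 bp, beside 519 bp elsewhere. A width of 1 kb or more was reached by 17 regions (3.68%), beside 3.95% on the other chromosomes. The widest, from 77805347 to 77806931, opens the second group of 5 and had a fold enrichment of 8.51, 11.6, 7.97 and 5.37 in replicates 1 to 4. Wide regions were thus not always strong ones.

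The strongest site of the chromosome lay on the short arm from 4613243 to 4614368. Its fold enrichment was 35.9, 34.8, 39.3 and 25.3 in replicates 1 to 4, a mean of 33.8 ± 6.02 (SD, n = 4), and the 4 summits lay within 76 bp of each other. The next, from 3657799 to 3658666, had 32.8, 35.8, 32.8 and 29.1, a mean of 32.6 ± 2.74 (SD, n = 4). In each replicate these sites took the top 2 places on the chromosome, and their order changed between replicates. Among all recurrent regions of the chromosomes they ranked 7 and 10 by mean fold enrichment.

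The third site, from 7518031 to 7518781 in the fullest bin, had 26.3, 28.4, 32.2 and 20.9 in replicates 1 to 4, a mean of 26.9 ± 4.70 (SD, n = 4). So the 3 strongest sites all lay in the first 9 Mb. The fourth, from 38108881 to 38109712 on the long arm, had a mean of 23.5 ± 4.01 (SD, n = 4). The site from 35715895 to 35716733 varied most among the 10 strongest, with 27.7, 29.7 and 22.3 in replicates 1 to 3 and 11.2 in replicate 4. The site from 79980606 to 79981210, in the second fullest bin, varied least, with 22.1, 19.0, 19.0 and 19.9. Means of the remaining 4 sites lay between 20.1 and 21.8. Their SDs, of 3.77 to 6.08, exceed the steps between them, so their order is not settled.

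In 8 of the 10 sites replicate 4 had the lowest fold enrichment. The summits of the 4 replicates lay 24 to 158 bp apart. None of the 10 lay in a window of the study's gene list, so no gene name is given for them. That list is limited to G4s that the paper calls specific to prostate cancer. Chromosome 17 held 7 of the 100 strongest recurrent regions of the genome, a tie for rank 5 of 24 and near its 7.06% share of all recurrent regions.

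**Figure D4:**
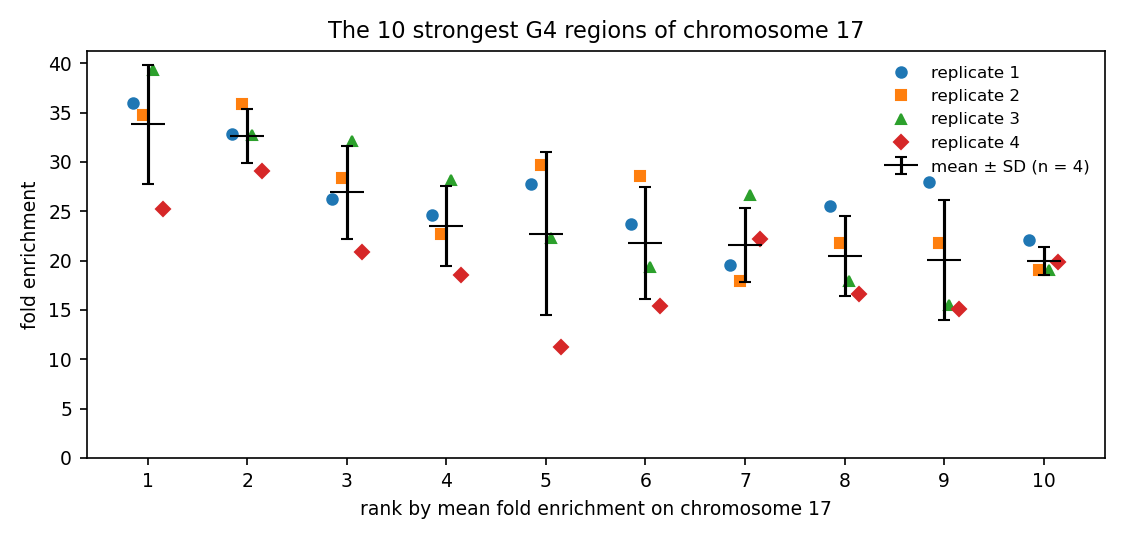
Fold enrichment (vertical axis) in each replicate at the 10 strongest G4 regions of chromosome 17, ordered by mean (horizontal axis), with black lines for the mean ± SD (n = 4). The first 2 regions, with means of 33.8 and 32.6, stand above the others, and replicate 4 is the lowest point in 8 of the 10.

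Gene names came from the windows, which the study listed because they hold peaks of these samples, so they are used as names and not as evidence. The paper describes the list as G4s specific to prostate cancer, found by comparing C4-2 peaks with HepG2 and K562 cells. G4s shared with those lines can thus be absent from it, which limits every count of windows. Of the 88 windows on chromosome 17, replicates 1 to 4 had a peak in 52, 43, 50 and 34. A peak of at least 2 replicates lay in 47 windows (53.4%, exact binomial 95% confidence interval 42.5% to 64.1%), beside 49.0% of all 1303 windows. A peak of all 4 lay in 15 windows (17.05%), beside 12.8% of all windows, and these 15 hold 9 different G4 regions. Of the 15, 6 are mitochondrial-like by name and uncertain for the reason given with them. The clone windows RP11-1113L8.7, RP11-846F4.1 and RP11-846F4.9, also among the 15, hold the same regions and are as uncertain. Other clone windows among the 47, such as AC025627.4 and RP11-846F4.5, hold such regions too. Overlapping windows can hold the same peak, so the interval overstates the precision. A window was touched by 33 of the 462 regions (7.14%), near the 7.24% of regions on the other chromosomes. All 4 replicates had called 33.3% of them, while for the regions outside windows the share was 43.8%.

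Under a gene symbol that is neither a clone name nor mitochondrial-like, CYB561 was the only window with a peak in all 4 replicates. Its fold enrichment was 6.55, 6.11, 7.49 and 5.62 in replicates 1 to 4, a mean of 6.44 ± 0.792 (SD, n = 4). This is low among regions of all 4 replicates, and the region, from 61523480 to 61524344, ranked 211 of 462. The nearest summit lay 364 bp from the centre of the CYB561 window, and peaks of only 2 replicates covered that centre. Among windows with a clone name, RP11-353N14.4 on the long arm had the highest mean over the 4 replicates (10.2), with 13.3, 11.02, 8.98 and 7.38. It was highest in no single replicate. AC015884.1, with 15.6, 12.3 and 9.10 in replicates 1 to 3, exceeded it there and had no peak in replicate 4. The peaks of RP11-353N14.4 covered the window centre in all 4 replicates.

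Transcription genes had peaks of at least 2 replicates in 3 of 4 windows. With so few windows, this and the group counts that follow are not read as different from the 49.0% of all windows. ZNF287, a zinc finger gene, had 8.99, 7.53 and 7.15 in replicates 1 to 3, with the nearest summit 28 bp from the window centre. RAI1 had 5.14, 6.13 and 8.31 in the same replicates. HOXB13, a homeobox gene of the prostate lineage and the only lineage gene on the list, had 4.90, 5.72 and 4.70 in replicates 1, 3 and 4. Its region, from 46806045 to 46806687, is weak, with rank 345 of 462. SLFN5 had a peak in replicate 4 only.

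Nucleotide metabolism genes had peaks of at least 2 replicates in 5 of 5 windows, but 3 of these hold 1 region. NME1 and NME2, for nucleoside diphosphate kinases, and their readthrough gene NME1-NME2 have nearly the same window, with 5.99 and 5.94 in replicates 1 and 2. NT5M, for a mitochondrial nucleotidase, had 9.78, 5.48 and 10.05 in replicates 1 to 3. CANT1, for a calcium-activated nucleotidase, had 4.81 in replicate 1 and 6.04 in replicate 4. Replicate 4 thus lacked a peak at NT5M and NME1 and had the higher value at CANT1.

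Adhesion, matrix and cytoskeleton genes had such peaks in 3 of 5 windows. ITGA3, for an integrin subunit, had 6.45, 4.35 and 4.34 in replicates 1, 3 and 4, with summits near the window centre. COL1A1, for the main chain of type I collagen, had 9.32 in replicate 1 and 4.70 in replicate 4, and its nearest summit lay 1221 bp from the centre. EPN3, for an endocytic adaptor, had 4.33 in replicate 2 and 5.00 in replicate 3. These are separate peaks that do not overlap, so its window holds no region of the 462.

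Nerve and membrane signalling genes had peaks of at least 2 replicates in 3 of 7 windows, those of CYB561, TSPAN10 and CACNB1. TSPAN10, for a tetraspanin, had 8.73, 5.27 and 8.90 in replicates 1 to 3, with a summit 4 bp from the window centre. CACNB1 had 6.12 and 5.52 in replicates 1 and 3. None of the 3 windows for DNA repair and replication (RAD51D, RAD51L3-RFFL and ATAD5) and none of the 2 for protein turnover (UBB and RNF135) had a second replicate. RAD51D and RAD51L3-RFFL share a single peak of replicate 2, with 4.43. Of the 2 mitochondrial genes, NT5M had peaks of 3 replicates and RHOT1, for a GTPase of mitochondrial transport, of 1 (5.93 in replicate 3).

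**Figure D5:**
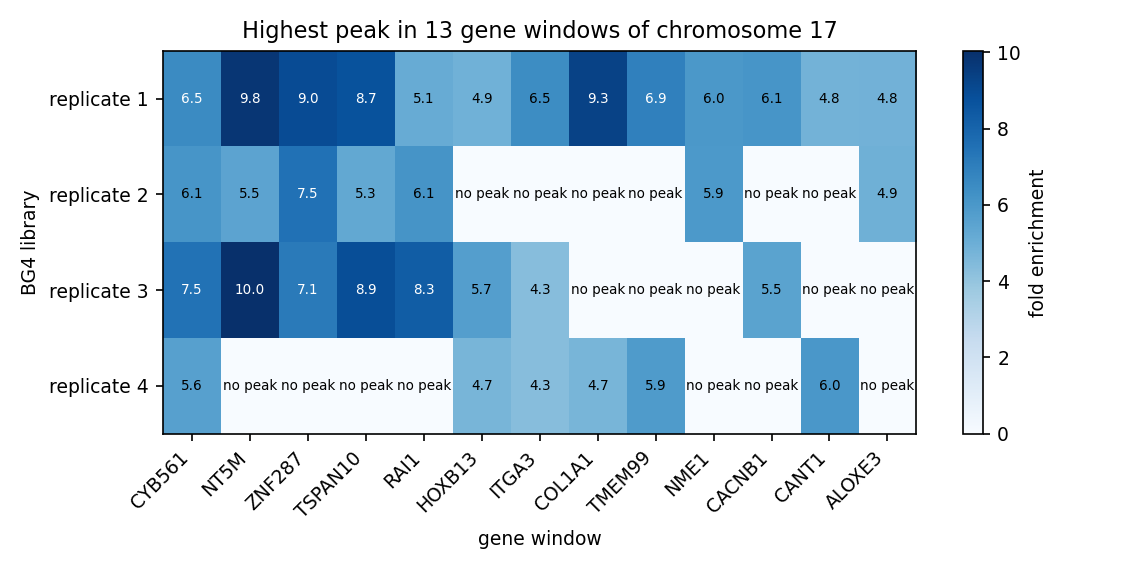
Highest fold enrichment of a peak in each replicate (rows) in 13 gene windows of chromosome 17 (columns), shown by colour and printed in each cell. CYB561 has a value in all 4 replicates, and replicate 4 lacks a peak in NT5M, ZNF287, TSPAN10, RAI1, NME1, CACNB1 and ALOXE3. Not every gene window with peaks of at least 2 replicates is shown, and SUZ12P is among those left out.

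Some windows were reached only by the edge of a region. The region from 6917733 to 6918503 had a fold enrichment of 14.9, 15.7, 10.2 and 7.13, and ranked 53 of 462, but it overlapped the RNASEK window by 4 bp, through replicate 3 alone. A region of all 4 replicates met the KCNAB3 window by 1 bp, and another met the RNF135 window by 4 bp. The GALR2 window, named for a galanin receptor gene, held 83 bp of a region of 3 replicates. In all, 52 windows were met by a region, 6 of these through a peak of 1 replicate, and 36 were met by none. The window centre lay inside a region in 19.

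Small RNA genes had peaks of at least 2 replicates in 4 of 7 windows. SNORD3B-1 and SNORD3B-2, copies of the gene for the small nucleolar RNA U3, share a region with 4.12 and 5.58 in replicates 2 and 3. Their copies SNORD3A and SNORD3C share a peak of replicate 3 with 5.62. Copies of this kind can share reads, so the peaks of either pair are uncertain. MIR1253 and hsa-mir-1253 are the same gene, and their shared peaks lay at least 1681 bp from the window centre. MIR4730 had a peak in replicate 1 only, with 5.05.

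Windows named for mitochondrial-like sequence had peaks of at least 2 replicates in 7 of 7 cases, 6 of them in all 4. They hold 4 regions. The region at MTND1P14, TRNAQ41P and MTND2P12 begins at 19506352 and had 8.42, 7.85, 8.25 and 7.28 in replicates 1 to 4. MTRNR2L1, a humanin-like gene, had 7.78, 7.99, 7.95 and 8.15 at a region that begins at 22020529, close to the centromere. Reads from mitochondrial DNA can align to such copies, so these regions are uncertain. Clone windows that hold these regions are uncertain for the same reason. Without the 4 regions, 458 remained.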

How the data were processed

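BG4 ChIP-seq was performed on 4 replicates of C4-2 cells. Per the submitters' processing notes, the authors used bcl2fastq 1.8.4, Bowtie2 2.2.5, SAMtools 1.11 and MACS2 2.1.1 with hg19, while the methods name hg38. The last peak on chromosome 1 ended at 249201060, which lies beyond that chromosome in hg38, so positions were taken as GRCh37. The deposited fold enrichment is a ratio computed by the authors at the summit. Significance was deposited by the authors as −log10 p and −log10 q. The score column of the deposited lists was not used. Treatment of duplicates and of the input is not given in the sources used here. The lists hold no counts, so depth per sample is unknown.

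Peaks were merged at 1 bp of overlap. Bins, arms and windows were assigned by region midpoints or by overlap. Comparisons within each replicate used exact two-sided sign-flip permutation tests over 4 replicates, adjusted by Benjamini-Hochberg over 4 tests. Shares have exact binomial intervals at 95%, which cover counting error only. Nothing in the labels says whether the replicates came from separate cultures, but the methods call them biological replicates. The p-values and SDs cover only the spread between these samples. Named were the 10 regions with the highest mean fold enrichment, the 5 fullest bins, windows under a gene symbol with a peak in all 4 replicates, and members of fixed gene groups. The clone window, the edge cases, the neighbour groups, the wide regions and the genes between RNASEK and KCNAB3 were chosen after their values were seen. The members and lists were chosen with earlier results of these data known. Gene order and promoters came from RefSeq on GRCh38.p14. The alternatives were other numbers of replicates, stricter overlap, stricter or equal numbers of peaks, shifted bins, and each replicate left out. Stricter overlap was not run for the density ratios, the median fold enrichment and the windows. Code for counting, the sign-flip test and the density ratio was checked on made-up data, and 13 of 13 quantities were recovered. Counting used 6000 simulated sites. These lay too far apart to join each other, so the handling of close sites was not checked. The tools were scipy 1.17.1, pandas 2.3.3 and numpy 2.4.6 under Python 3.11.15, with figures by matplotlib 3.10.9.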

Additional observations from a re-analysis of the deposited data

Results flagged for a closer look

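Outside the chromosome sequence, the lists also hold 32 peaks on 3 contigs that the hg38 sequence names assign to chromosome 17. They were singled out because they lie outside the 462 regions and their number is above the limit of 3 that a count of 0 allows. Replicates 1 to 4 had 11, 6, 8 and 7 peaks there, and merging gave 9 recurrent regions, 5 of them with a peak in all 4 replicates. The highest mean fold enrichment was 19.5 on the contig without a set place on the chromosome, and 10.3 on an alternative haplotype. Reads shared between such contigs and the chromosome were not tested. Of 25 measures over the 4 replicates checked for a single replicate far from the others, 0 passed the 95% limit of Dixon's test; chance alone passes about 1 in 20.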

How the results depend on the processing

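Of 104 recomputed values of 11 results, 74 were counted as unchanged. For tests this meant the same direction, and for shares and the median a value within their error. For counts and the density it meant a value within a set fold range, which is not an error. That range is wide, since 326 regions against the reported 462 counted as unchanged. No paired analysis was possible because the samples form 1 group. In every setting chromosome 17 ranked 2 in density, and the density ratio to the other chromosomes stayed above 1. None of the settings changed the lengths of the chromosomes. Both reversals concern small differences. The ratio of the long to the short arm was 1.04 without the bin from 7 to 8 Mb, and 0.974 without the fullest bin of each arm, both settings chosen after the data were seen, and the difference in median fold enrichment was 0.232 with the 3000 strongest peaks per replicate. With those 3000 peaks there were 213 regions (2.63 per Mb), 13 in the fullest bin, a median highest fold enrichment of 12.6, 9.39% of regions within 10 kb of another and 15 windows with at least 2 replicates. With at least 1, 3 or 4 replicates per region, 723, 326 and 199 regions gave 8.92, 4.02 and 2.46 per Mb, a median of 7.32, 10.3 and 12.2, a share with a close neighbour of 37.9%, 17.8% and 11.6%, and 88, 29 and 15 windows; the fullest bin held 13 regions at 4 replicates. Peaks with a −log10 q of at least 4 gave a median of 9.66. Bins shifted by 0.5 Mb put the fullest bin at 79.5 Mb, with 28 regions. Leaving out each replicate in turn gave 354 to 437 regions, a share found in every remaining replicate of 53.6% to 65.2% (fewer replicates are then required), a median of 9.05 to 9.57 and a share with a close neighbour of 20.6% to 24.7%. Windows with at least 2 replicates then numbered 32 to 44, and the 32 came without replicate 1.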
